A study of Mus musculus with 11 samples.

Results

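The BMP response genes and feedback inhibitors described here are Id1, Id2, Id3, Id4, Smad6, Smad7, Bambi, Msx1 and Msx2. They were taken as every probe set whose only annotated gene symbol is one of these names, which gave 16 probe sets for 9 genes, out of 45037 probe sets and 18193 named genes tested. Values come from 11 arrays of RNA from pooled mouse hearts at embryonic day 9.5, of which 50 ng was amplified for each array. CKO-labelled hearts were Gata4 flox/flox; Nkx2-5 cre/+ (5 arrays). Double heterozygous hearts were Gata4 flox/+; Nkx2-5 cre/+ (3 arrays), and control hearts were Gata4 flox/+; Nkx2-5 +/+ (3 arrays), so the control also carried 1 floxed Gata4 allele. Cre was placed at Nkx2-5, which cardiac progenitors and heart muscle use, so recombination depends on cells that use that gene and every Cre heart has 1 Nkx2-5 allele that carries Cre. The hearts were pooled, and the labels do not say whether each replicate was its own pool. A p-value here therefore covers the spread among these arrays, and that spread may be technical.

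BMP ligands are secreted factors that bind paired type I and type II serine-threonine kinase receptors, which phosphorylate the receptor SMADs. These enter the nucleus with the shared partner SMAD4 and switch on target genes, among which the Id genes are the best known. ID proteins lack a DNA-binding region and hold E proteins away from DNA, and MSX1 and MSX2 are homeobox repressors induced by BMP in many embryonic tissues. SMAD6 and SMAD7 are inhibitory SMADs and BAMBI is a decoy receptor without a kinase, and all of them damp the signal that induces them. In the early heart BMP signalling serves myocardial differentiation, endocardial cushion formation and the outflow tract.

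Promoter sequence (RefSeq, GRCm38.p6) was at hand for 6 of the 9 genes, namely Id2, Id3, Id4, Smad6, Msx1 and Msx2. The 250 bases before each gene's start were searched on both strands for the GC-rich SMAD motif GGCGCC, the palindromic SMAD motif GTCTAGAC and the GATA motifs AGATAA, with its variants TGATAA as the second, AGATAG as the third and TGATAG as the last. Id2 and Id4 each held 1 copy of GGCGCC, a motif present in 9.59% of 32851 promoters of this length. They are printed because, of the Id genes with a promoter at hand, these are the pair with that motif, and their means lay on opposite sides of control in CKO-labelled arrays. Capitals mark the motif.
Id2 (chr12:25096093-25096342, minus strand): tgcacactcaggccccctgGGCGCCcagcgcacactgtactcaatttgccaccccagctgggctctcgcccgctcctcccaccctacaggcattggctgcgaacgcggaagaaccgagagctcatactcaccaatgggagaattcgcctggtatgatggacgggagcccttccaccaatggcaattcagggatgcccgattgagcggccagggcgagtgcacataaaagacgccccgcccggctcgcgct
Id4 (chr13:48260866-48261115, plus strand): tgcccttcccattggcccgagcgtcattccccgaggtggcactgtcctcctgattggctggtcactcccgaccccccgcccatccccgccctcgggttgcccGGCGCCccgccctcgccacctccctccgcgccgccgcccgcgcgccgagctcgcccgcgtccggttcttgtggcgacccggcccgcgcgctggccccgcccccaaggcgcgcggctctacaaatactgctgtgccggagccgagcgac
The motif GTCTAGAC, found in 0.167% of all promoters, and the 4 GATA motifs, of which at least 1 was found in 26.5%, had 0 matches in the 6 windows. A match is a description of letters only, and the absence of one covers only these windows.

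Values below are log2(intensity + 16) after quantile normalisation, on which a deposited intensity of 0 is 4. The median over all probe sets and arrays was 5.346. Of the CKO-labelled arrays, replicate 2 had the widest gap between 3' and 5' beta-actin probe sets (1.0 log2 units, with 0.295 to 0.45 elsewhere), a measure of RNA integrity and amplification. Replicate 3 was the dimmest, with 117.2 intensity units on average where the others had 166.4 to 175.6. Values without these arrays are added where leaving them out changes a call, and for some named differences that it moves by over 1.5 times. The Gata4 probe sets averaged 9.43 and 8.12 in CKO-labelled arrays, 9.31 and 8.44 in double heterozygous arrays, and 8.98 and 8.03 in control arrays, so neither CKO-labelled mean was below the control mean. The first was called higher under the CKO label than in control arrays (0.45, adjusted p = 0.0321, limma), against the direction of the label. Whether this call holds under other scalings or with arrays left out was not tested. The second was spread widely in CKO-labelled arrays (SD 0.97, n = 5), against 0.19 in double heterozygous and 0.10 in control arrays (n = 3 each). The sources used here do not say whether they lie in the deleted part. Nkx2-5 averaged 9.34 ± 0.34 in 5 CKO-labelled, 9.48 ± 0.097 in 3 double heterozygous and 9.87 ± 0.055 in 3 control arrays (mean ± SD). None of the 8 cardiomyocyte markers was below the median of all probe sets on every array. The same held for the endothelial, erythroid and proepicardial marker lists described below, so this cut does not test the tissue.

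Between CKO-labelled and control arrays, 3 of the 16 probe sets were called at an adjusted p under 0.05 (limma, Benjamini-Hochberg over all probe sets). All 3 were higher in CKO-labelled arrays, and they belong to Smad7, Id1 and Bambi. Over the whole platform the share called in this comparison was 1.40%, with 0.837% higher and 0.566% lower. An unadjusted p under 0.05 was reached by 9 of 16 (13.2% of all), and 9 of 16 means were higher (48.5% of all). The median log2 fold change was 0.18 over the 16 probe sets and -0.0079 over all probe sets. Of the 16, 6 had all CKO-labelled arrays above all control arrays (3.93% of all probe sets did) and 1 had all of them below (5.81%). Between CKO-labelled and double heterozygous arrays 0 of 16 were called (0.349% of all probe sets, 0.286% higher and 0.0622% lower), with 6 at an unadjusted p under 0.05 (12.0%) and 7 means higher (48.8%). All CKO-labelled arrays lay above all double heterozygous arrays for 3 of 16 (3.07%) and below them for 3 (4.45%). Between double heterozygous and control arrays 0 of 45037 probe sets were called by limma (0%), and 4 of the 16 had an unadjusted p under 0.05 (3.19%), all 4 higher in double heterozygous arrays (1.59%). In that comparison all 3 double heterozygous arrays lay above all 3 control arrays for 6 of 16 probe sets, from the 6 genes Id1, Id2, Id3, Smad6, Bambi and Msx2 (4.69% of all probe sets). For 0 of 16 they lay below (5.66%). Of the 16 means, 14 were higher in double heterozygous than in control arrays, as were 49.8% of all probe sets. The comparisons share arrays, so their values are given side by side and are not independent. With 1 probe set per gene, the members ranked from percentile 59.9 (Msx1) to 98.2 (Id2) in brightness, while the shares also count dim probe sets. The members were chosen with earlier results of these data known, so the shares are no test of the set.

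**Figure D1:**
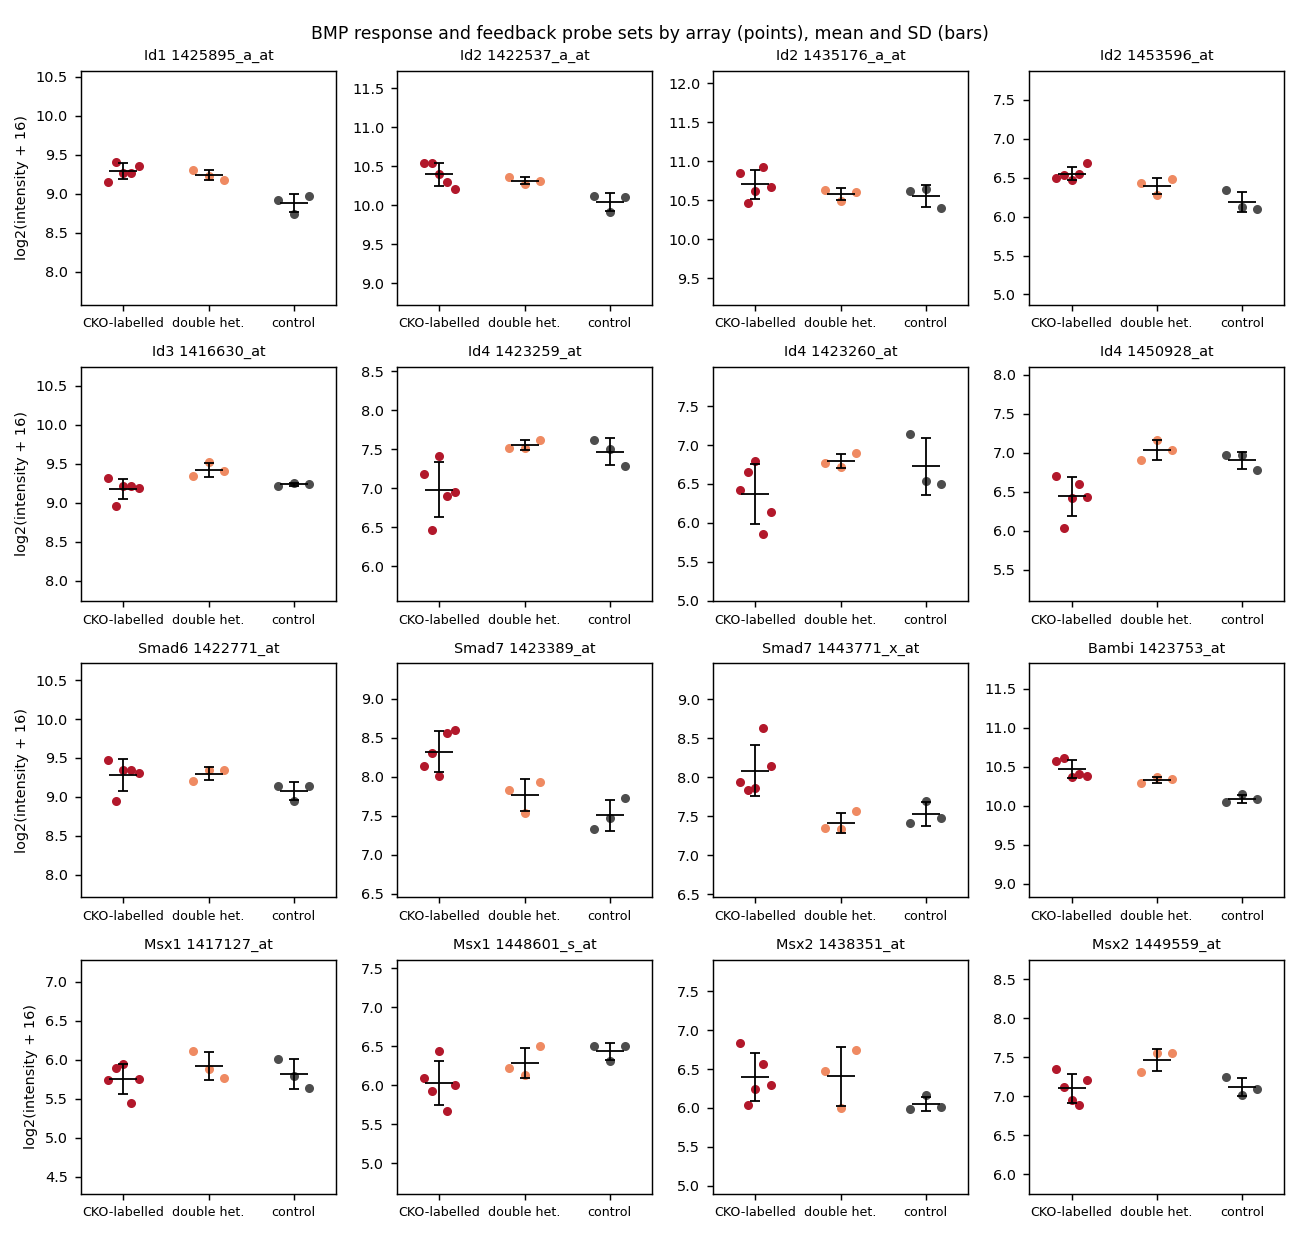
Each panel shows 1 probe set, with log2(intensity + 16) on the vertical axis (each panel spans 3 log2 units), points for single arrays, and bars for the mean and SD of CKO-labelled (n = 5), double heterozygous (n = 3) and control arrays (n = 3). Id1, Id2 1422537_a_at and Bambi have all 8 Cre arrays above the control arrays, and both Smad7 panels have the CKO-labelled arrays above both other groups.

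Id1 encodes the ID protein most often used as a readout of BMP signalling. Its 1 probe set read 9.15, 9.41, 9.27, 9.26 and 9.35 in CKO-labelled arrays, 9.31, 9.22 and 9.18 in double heterozygous arrays, and 8.92, 8.75 and 8.97 in control arrays. All 8 arrays with Cre lay above all 3 control arrays, and the 2 Cre groups overlapped. The log2 fold change between CKO-labelled and control arrays was 0.41 (SE 0.086), or 1.33-fold, and was called (adjusted p = 0.0288, limma). Double heterozygous arrays were at 0.36 (SE 0.096) above control, with a 95% interval of 0.15 to 0.56 and an unadjusted p of 0.00202 by limma that did not pass after adjustment. The difference of CKO-labelled from double heterozygous arrays was 0.053, with a 95% interval of -0.13 to 0.24. Its sign turned on the deposited scale (-0.063) and after median centring (-0.11).

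Id2, a second ID gene of the early embryo, had 3 probe sets that did not move alike. Probe set 1422537_a_at read 10.54, 10.54, 10.40, 10.30 and 10.21 in CKO-labelled arrays, 10.36, 10.27 and 10.31 in double heterozygous arrays, and 10.12, 9.91 and 10.10 in control arrays. Here too all 8 Cre arrays lay above the 3 control arrays. Its log2 fold change was 0.36 (SE 0.087) for CKO-labelled against control arrays and missed the threshold (adjusted p = 0.0591, limma). It was called with dim probe sets filtered out (adjusted p = 0.0374), with array weights (0.32, adjusted p = 0.0282) and without CKO-labelled replicate 5 (0.41, adjusted p = 0.0464). It was 0.27 (SE 0.097, 95% interval 0.065 to 0.48) for double heterozygous against control arrays. The dimmer probe set 1453596_at read 6.47 to 6.69 in CKO-labelled, 6.28 to 6.48 in double heterozygous and 6.10 to 6.34 in control arrays (CKO-labelled against control 0.36, adjusted p = 0.173, and 0.42 with array weights, adjusted p = 0.0319). The brightest, 1435176_a_at, read 10.46 to 10.92, 10.49 to 10.63 and 10.40 to 10.64 in the same groups, which overlapped (0.15, adjusted p = 0.575, and 0.26 without CKO-labelled replicates 2 and 3). The Id2 result thus rests on which probe set is read.

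Id3, which often accompanies Id1, did not follow it. It read 9.31, 8.97, 9.22, 9.21 and 9.19 in CKO-labelled arrays, 9.35, 9.52 and 9.40 in double heterozygous arrays, and 9.22, 9.25 and 9.25 in control arrays. The double heterozygous arrays were above every array of both other groups. Double heterozygous minus control was 0.18 (95% interval -0.023 to 0.39), CKO-labelled minus double heterozygous was -0.24 (adjusted p = 0.279), and CKO-labelled minus control was -0.057 (95% interval -0.24 to 0.13).

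Id4 had lower means in CKO-labelled arrays on all 3 probe sets, none of which was called. The probe set with the smallest p, 1450928_at, read 6.70, 6.04, 6.42, 6.60 and 6.44 in CKO-labelled arrays, 6.91, 7.16 and 7.03 in double heterozygous arrays, and 6.97, 6.96 and 6.78 in control arrays. Every CKO-labelled array lay below every other array. The log2 fold change was -0.46 (SE 0.15, adjusted p = 0.150) against control arrays and -0.60 (adjusted p = 0.111) against double heterozygous arrays. Probe set 1423259_at read 7.18, 6.47, 7.41, 6.90 and 6.95 in CKO-labelled arrays, 7.52, 7.52 and 7.63 in double heterozygous arrays, and 7.62, 7.51 and 7.29 in control arrays. Its difference of -0.49 from control arrays (adjusted p = 0.193) became a call at -0.46 (adjusted p = 0.0460) when CKO-labelled replicates 2 and 3 were both left out, and at -0.47 (adjusted p = 0.0378) with array weights. Against double heterozygous arrays its difference of -0.57 was called without CKO-labelled replicate 3 (-0.68, adjusted p = 0.0491), without replicates 2 and 3 (-0.54, adjusted p = 0.0339) and with array weights (-0.58, adjusted p = 0.0465). The lowest value was that of CKO-labelled replicate 2 on both of these probe sets, and without that array the differences from control were -0.36 on each. The third probe set, 1423260_at, overlapped between groups (-0.35, adjusted p = 0.499, and -0.59 without CKO-labelled replicates 2 and 3). These 3 probe sets share 1 source sequence in the annotation, so they are no separate evidence of each other. Among the Id genes, then, 1 gene was called higher in CKO-labelled arrays and 0 lower under quantile normalisation.

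Smad7, the inhibitory SMAD that blocks receptors of both the BMP and TGF-beta branches, had the largest log2 fold change among the 16 probe sets. Probe set 1423389_at read 8.13, 8.30, 8.01, 8.56 and 8.60 in CKO-labelled arrays, 7.83, 7.54 and 7.93 in double heterozygous arrays, and 7.32, 7.46 and 7.72 in control arrays. The CKO-labelled arrays lay above all 6 others, while the double heterozygous and control arrays overlapped. CKO-labelled over control came to 1.76-fold, or 0.82 on the log2 scale (SE 0.15, adjusted p = 0.0129, limma). It was the 1 member probe set called by the F-test over the 3 groups (adjusted p = 0.0254), by which 0.961% of all probe sets were called. Against double heterozygous arrays it was 0.55 higher (SE 0.15, adjusted p = 0.149). Probe set 1443771_x_at read 7.94, 7.84, 7.87, 8.64 and 8.14 in CKO-labelled arrays, 7.34, 7.33 and 7.57 in double heterozygous arrays, and 7.42, 7.70 and 7.47 in control arrays. It too separated the CKO-labelled arrays from the rest, at 0.56 (adjusted p = 0.113) against control and 0.67 (adjusted p = 0.0998) against double heterozygous arrays, and both were called with array weights (0.61 and 0.74). Without CKO-labelled replicates 2 and 3 both probe sets were called against control (0.92 and 0.71) and against double heterozygous arrays (0.66 and 0.82). Double heterozygous minus control was 0.26 (95% interval -0.092 to 0.62) on the first and -0.11 (95% interval -0.50 to 0.27) on the second, so the 2 probe sets differ in sign there.

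Smad6, the inhibitory SMAD more selective for BMP receptors, read 9.48, 8.94, 9.35, 9.35 and 9.30 in CKO-labelled arrays. It read 9.21, 9.34 and 9.35 in double heterozygous arrays and 9.14, 8.94 and 9.15 in control arrays. All double heterozygous arrays and 4 of 5 CKO-labelled arrays were above the control arrays, and the exception was replicate 2. The differences from control were 0.21 (adjusted p = 0.443) in CKO-labelled and 0.22 (95% interval -0.034 to 0.48) in double heterozygous arrays. Without CKO-labelled replicate 2 the first was 0.29.

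Bambi, the decoy receptor, read 10.57, 10.61, 10.37, 10.41 and 10.38 in CKO-labelled arrays, 10.30, 10.37 and 10.34 in double heterozygous arrays, and 10.05, 10.15 and 10.08 in control arrays. The 3 groups did not overlap, with double heterozygous arrays in between, although replicate 2 of that group and CKO-labelled replicate 3 were almost level. CKO-labelled over control came to 1.30-fold, or 0.38 on the log2 scale (SE 0.074, adjusted p = 0.0204, limma). Double heterozygous minus control was 0.24 (SE 0.082, 95% interval 0.066 to 0.42, unadjusted p = 0.0102 by limma). CKO-labelled minus double heterozygous was 0.13 (95% interval -0.022 to 0.29), a sign that turned with median centring (-0.044).

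**Figure D2:**
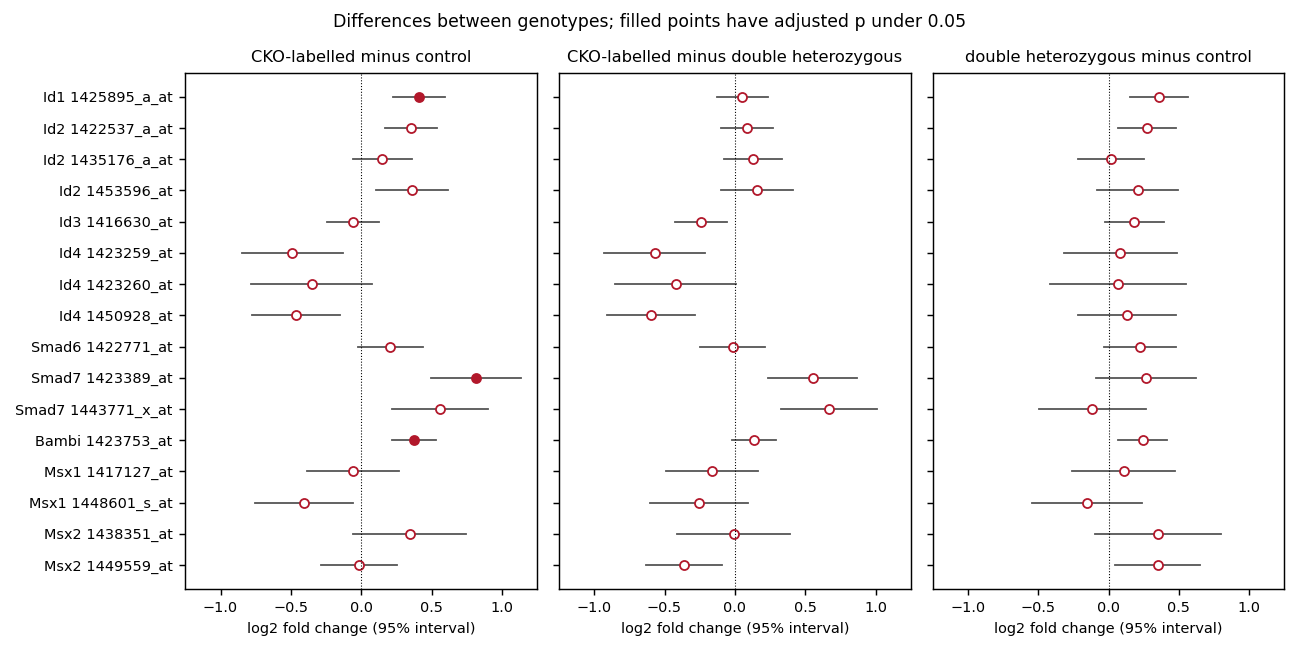
Log2 fold changes (points) with 95% intervals (lines) of the 16 probe sets in the 3 comparisons, with filled points for an adjusted p under 0.05. Id1, Smad7 1423389_at and Bambi are the filled points, all in CKO-labelled minus control, and the intervals of Id1, Id2 1422537_a_at, Bambi and Msx2 1449559_at lie above 0 in double heterozygous minus control.

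Msx1 and Msx2, homeobox genes of cushion mesenchyme and other BMP-rich tissue, gave no call. Msx1 was dim, at 30.7 to 52.5 deposited units on probe set 1417127_at, so the offset shrinks its log2 fold changes. For CKO-labelled minus control Msx1 1417127_at was at -0.057, at -0.081 with an offset of 1, and at -0.17 without CKO-labelled replicates 2 and 3. Its other probe set, 1448601_s_at, read 5.67 to 6.44 in CKO-labelled, 6.13 to 6.50 in double heterozygous and 6.31 to 6.50 in control arrays (-0.41, adjusted p = 0.285). Msx2 1449559_at read 7.35, 7.12, 6.95, 6.89 and 7.21 in CKO-labelled arrays, 7.31, 7.55 and 7.55 in double heterozygous arrays, and 7.25, 7.02 and 7.09 in control arrays. The double heterozygous arrays were the high ones, at 0.35 above control (SE 0.14, 95% interval 0.046 to 0.65), while CKO-labelled minus control was -0.016. Msx2 1438351_at was at 0.35 for double heterozygous and 0.34 for CKO-labelled minus control, with overlap in both, and neither was called. The CKO-labelled difference was 0.52 without CKO-labelled replicates 2 and 3.

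Which genes were already high in double heterozygous arrays can be read from these values. Id1, Id2 on 1422537_a_at and Bambi had all 8 Cre arrays above the control arrays, a pattern shown by 0.979% of all probe sets (0 of 16 had all 8 below, against 1.24% of all). Their differences from control were 0.36, 0.27 and 0.24 in double heterozygous and 0.41, 0.36 and 0.38 in CKO-labelled arrays. Id3 and Msx2 on 1449559_at were above control in double heterozygous arrays but not in CKO-labelled arrays, and Smad6 was above it in both by about the same amount. Smad7 was above control mainly in CKO-labelled arrays, and Id4 had lower means in those arrays on each probe set. A contrast of both Cre groups with control, chosen after these values were seen, called 0 of 16 (0.107% of all probe sets were called higher and 0.0377% lower). It gave 0.38 for Id1 (adjusted p = 0.104, limma), 0.31 for Bambi (adjusted p = 0.144) and 0.31 for Id2 1422537_a_at (adjusted p = 0.259). The other Id2 probe sets were at 0.28 (1453596_at) and 0.084 (1435176_a_at). The largest of the 16 differences was 0.54, for Smad7 1423389_at (adjusted p = 0.258), whose Cre arrays overlapped control arrays. None of the double heterozygous differences passed adjustment over the array, so these remain descriptions.

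The calls depended on how arrays were scaled and on single arrays. On the deposited scale and with each array centred on its median, 0 of 16 probe sets were called, and the median over the 16 was 0.025 and 0.017 in place of 0.18. The log2 fold changes of CKO-labelled minus control were then 0.67 and 0.66 for Smad7 1423389_at, 0.27 and 0.26 for Id1, and 0.22 and 0.21 for Bambi. Those of Id4 moved further below 0, though none was called. They were -0.63 and -0.64 for 1423259_at, -0.57 and -0.58 for 1450928_at, and -0.45 and -0.46 for 1423260_at. On the deposited scale CKO-labelled replicate 3 read 427.5 for Id1, 947.4 for Id2 1422537_a_at and 929.1 for Bambi, against 429.7 to 507.0, 988.1 to 1167.7 and 1112.8 to 1172.1 in control arrays. On that scale this array was thus below every control array for all 3, and the order of all 8 Cre arrays above control did not hold. Double heterozygous minus control was 0.34 and 0.37 for Id1, and 0.22 and 0.26 for Bambi. The call of Id1 was also lost without CKO-labelled replicate 5 (0.40), double heterozygous replicate 1 (0.41), or control replicate 1 (0.43), 2 (0.34) or 3 (0.46). That of Bambi was lost without control replicate 1 (0.35), 2 (0.40) or 3 (0.37), and that of Smad7 without control replicate 1 (0.72) or 2 (0.80).

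**Figure D3:**
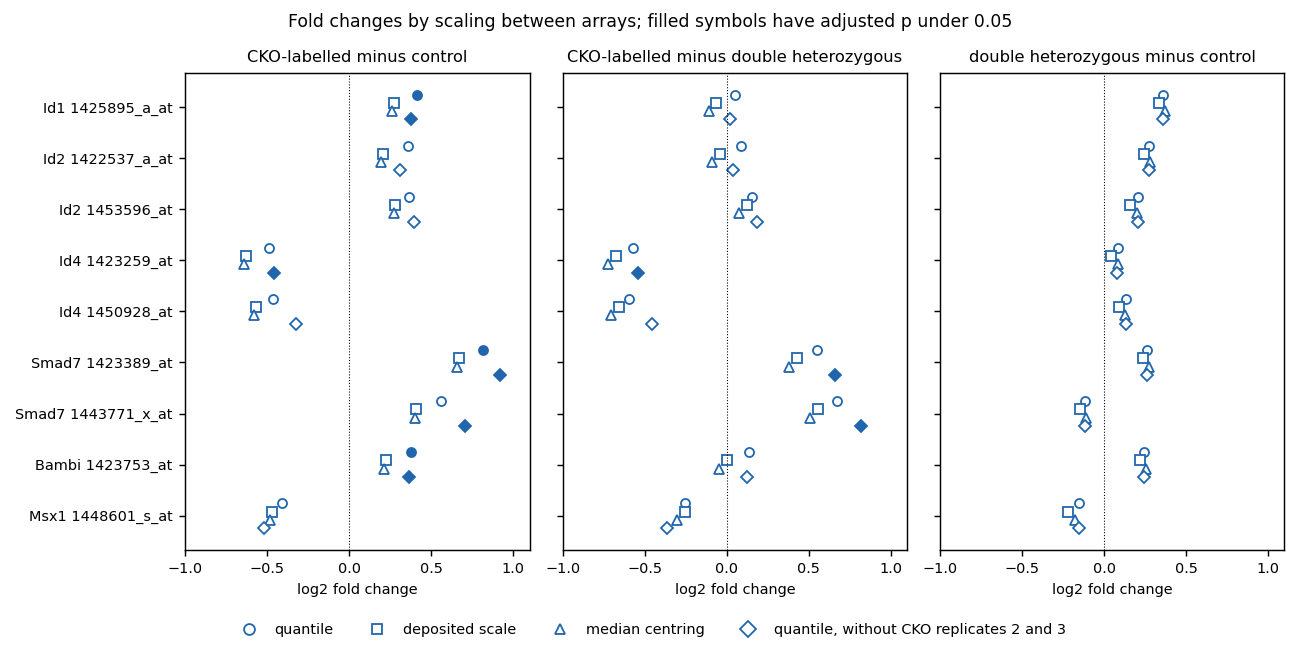
Log2 fold changes (horizontal axis) of the 9 probe sets with an unadjusted p under 0.05 in CKO-labelled minus control, under quantile normalisation, the deposited scale, median centring, and quantile normalisation without CKO-labelled replicates 2 and 3, with filled symbols for an adjusted p under 0.05. The values of CKO-labelled minus control for Id1, Id2 and Bambi are smaller on the deposited scale or after median centring, and no symbol on either of those scalings is filled.

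Other genes of the pathway were read on 1 probe set each. Counts of higher means and medians of the lists were taken under quantile normalisation only, and how scaling moves them was not tested. Of 8 measured BMP ligands, 2 were called higher and 0 lower in CKO-labelled against control arrays, with a list median of 0.30. Bmp5 averaged 9.17 ± 0.19 in CKO-labelled, 8.84 ± 0.090 in double heterozygous and 8.65 ± 0.12 in control arrays (mean ± SD, groups as above), and CKO-labelled over control was 1.44-fold (adjusted p = 0.0270, limma). It was no longer called under 9 of 22 alternatives, including the deposited scale (0.38), median centring (0.37), and leaving out CKO-labelled replicate 5 (0.54) or control replicate 1 (0.56), 2 (0.55) or 3 (0.45). All 3 Bmp5 probe sets had higher means (0.26 to 0.52), and 1 of them was called. Bmp7 was 1.38-fold higher (adjusted p = 0.0499), a call lost in 16 of 22 alternatives, among them leaving out CKO-labelled replicate 1 (0.44) or 3 (0.46), both of 2 and 3 (0.36), any 1 double heterozygous array (0.46 each) or control replicate 1 (0.45), 2 (0.46) or 3 (0.49). Of its 3 probe sets, 1 had a lower mean. Of 10 receptors and co-receptors 0 were called, with Bmpr2 at 0.25 and Acvrl1 at 0.55 for CKO-labelled minus double heterozygous (adjusted p = 0.324 and 0.350). Without CKO-labelled replicates 2 and 3 Acvrl1 was at 0.27. Its signal was near the overall median, averaging 5.66 in CKO-labelled and 5.10 in double heterozygous arrays.

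Of the 4 signal-carrying SMADs, Smad4 was called. It averaged 10.70 ± 0.12 in CKO-labelled, 10.32 ± 0.12 in double heterozygous and 10.13 ± 0.10 in control arrays (mean ± SD), a 1.49-fold difference between CKO-labelled and control arrays (adjusted p = 0.00258, limma), and all 3 of its probe sets had higher means. The call was lost in 2 of 22 alternatives, the deposited scale or median centring. Smad1, named after its value was seen, was at 0.51 (adjusted p = 0.0804), and was called without CKO-labelled replicate 1 (0.58, adjusted p = 0.0329) and with array weights (0.53, adjusted p = 0.0162). Of 11 secreted antagonists 0 were called, with Bmper at -0.38 (adjusted p = 0.0835) and Chrd at 0.60 (adjusted p = 0.321). Bmper was called with dim probe sets filtered out (adjusted p = 0.0385), unmoderated (adjusted p = 0.0428) and with array weights (adjusted p = 0.0254), and Chrd was at 0.25 without CKO-labelled replicates 2 and 3. Chrd was close to the floor of 4, averaging 4.83 in CKO-labelled and 4.23 in control arrays. Its difference ran from 0.21 to 1.91 over the alternatives. Of 10 intracellular brakes 0 were called, although 9 had higher means in CKO-labelled arrays (median 0.16, against 48.5% of all probe sets with a higher mean), with the SMAD co-repressor Skil at 0.42 (adjusted p = 0.158) and Pdzrn3 at 0.36 against double heterozygous arrays (adjusted p = 0.126). Skil was called without CKO-labelled replicate 3 (0.52, adjusted p = 0.0261), without replicates 2 and 3 (0.54, adjusted p = 0.0178) and with array weights (0.50, adjusted p = 0.0115). It was at 0.27 on the deposited scale and 0.26 after median centring. Pdzrn3 was called with array weights (0.39, adjusted p = 0.0446).

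Of 9 other transcription factors known as BMP-induced, Gata3 was the 1 called, at 1.74-fold (log2 fold change 0.80, SE 0.17, adjusted p = 0.0288), with double heterozygous minus control at 0.51. It was no longer called under 7 of 22 alternatives, including the deposited scale (0.77) and the fits without CKO-labelled replicate 5 (0.77) or control replicate 1 (0.81), 2 (0.74) or 3 (0.82). Gata3 was also dim, averaging 6.23 in CKO-labelled and 5.44 in control arrays. Of 9 E proteins and other helix-loop-helix partners of ID proteins 0 were called, with Twist1 at -0.64 (adjusted p = 0.116) and the E protein gene Tcf4 at 0.47 (adjusted p = 0.116). Tcf4 was called without CKO-labelled replicate 3 (0.57, adjusted p = 0.0238), without replicates 2 and 3 (0.53, adjusted p = 0.0248) and with array weights (0.51, adjusted p = 0.0143). Twist1 was called without CKO-labelled replicate 5 (-0.79, adjusted p = 0.0446). In the 7 pathway lists 0 genes were called in either of the other comparisons, and 0 were called lower in any. The genes most like Smad7 1423389_at over the 11 arrays, among 18184 other genes, were Pitpnc1 (Pearson 0.978), Snhg14 (0.958), Irf2bp2 (0.955), Evi5 (0.955) and Pgk1 (0.952). This is a description with no test, since the arrays share their groups and scaling.

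**Figure D4:**
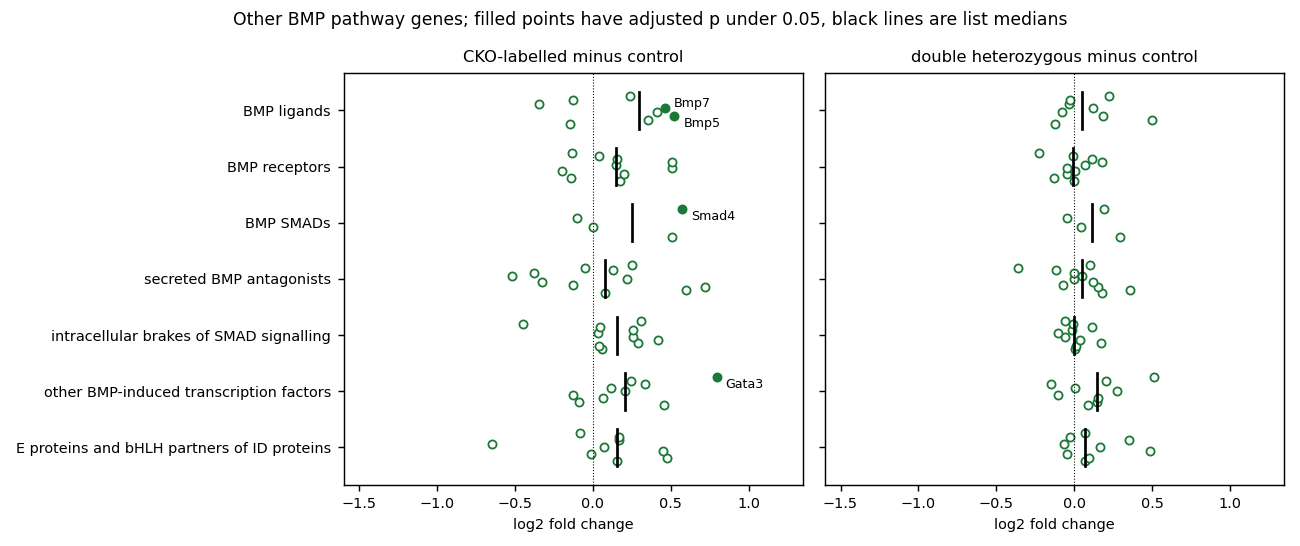
Log2 fold changes (horizontal axis) of the measured genes of 7 BMP pathway lists, 1 probe set per gene, for CKO-labelled minus control (left) and double heterozygous minus control (right), with filled points for an adjusted p under 0.05 and black lines for list medians. The called genes are Bmp5, Bmp7, Smad4 and Gata3, all in CKO-labelled minus control.

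Some markers of other cells of a dissected heart also differed between the groups, while the erythroid and cushion lists gave no call. In bulk RNA fewer cells of a type and less RNA per cell cannot be told apart. Of 10 endothelial and endocardial markers, cells in which Id1, Smad6 and Smad7 are also used, Kdr (0.69), Cdh5 (0.63) and Flt1 (0.98) were called higher and Tek (-0.65) lower in CKO-labelled against control arrays, and 9 had higher means. Tek kept its call in all 22 alternatives. Flt1 lost it in 2, one of them the deposited scale (0.84, adjusted p = 0.216). Kdr lost it in 5, among them the deposited scale (0.54), median centring (0.54), and leaving out control replicate 1 (0.63) or 2 (0.65). Cdh5 lost it in 10, among them the deposited scale (0.48), median centring (0.47), and leaving out CKO-labelled replicate 5 (0.57) or control replicate 1 (0.60), 2 (0.65) or 3 (0.63). Of 4 Flt1 probe sets 1 was called, and all 4 had higher means in CKO-labelled than in control arrays (0.17 to 0.98). Of 2 Cdh5 probe sets 1 was called, and the other was at 0.086 (adjusted p = 0.932). The summed level of the list, in intensity units, was 2977 to 3592 in CKO-labelled arrays, 2553 to 2710 in double heterozygous arrays and 2586 to 2715 in control arrays. All CKO-labelled arrays were above the rest, and the double heterozygous and control arrays overlapped. The part of this list in the values of Id1, Id2, Smad6, Smad7 and Bambi was not tested. Of 6 proepicardial and mesothelial markers, Tcf21 (-1.31) and Lrrn4 (-1.20) were called lower. Tcf21 lost its call in 4 of 22 alternatives, unmoderated (adjusted p = 0.137) and without control replicate 1 (-1.27), 2 (-1.31) or 3 (-1.34). Lrrn4 lost its call in 3, unmoderated (adjusted p = 0.0827) and without control replicate 2 (-1.16) or 3 (-1.12). The list had summed levels of 328.4 to 871.5 in CKO-labelled, 491.4 to 750.6 in double heterozygous and 977 to 1091 in control arrays. Summed levels of 8 cushion mesenchyme and neural crest markers were 307 to 1124, 425.6 to 700.3 and 545.8 to 664.3 in the same groups, with 0 called, Twist1 as above and Sox9 at -0.54 (adjusted p = 0.116). Of these 8, 4 had higher means in CKO-labelled than in control arrays, with a list median of -0.044. The part of either list in the values of Id4, Msx1 and Msx2 was not tested. Of 8 endoderm markers Krt18 was called higher (0.85), a call lost on the deposited scale (0.71, adjusted p = 0.14), while Foxa1, Foxa2 and Nkx2-1 were below the median of all probe sets on every array. The list median was 0.054, and Krt18 averaged 9.96 in CKO-labelled, 9.43 in double heterozygous and 9.11 in control arrays, with each other member's group means at most 5.63, so the summed level is mostly that of Krt18. The summed levels were 930.6 to 1286 in CKO-labelled, 678.0 to 964.1 in double heterozygous and 621.1 to 643.7 in control arrays, and the part of this list in any result was not tested. Of 7 erythroid markers 0 were called (Alas2 at 0.52 and Slc4a1 at 0.46). Alas2 was called without CKO-labelled replicates 2 and 3 (0.80, adjusted p = 0.0263) and with array weights (0.71, adjusted p = 0.0411), and was at 0.29 without control replicate 3. Of 8 cardiomyocyte markers Myh7 was called higher (0.27), which was no longer so under 8 of 22 alternatives, including the deposited scale (0.17) and the fits without control replicate 1 (0.28), 2 (0.26) or 3 (0.28). Of these 8, 3 had higher means in CKO-labelled than in control arrays, with a list median of -0.013. Tnni1 was at -0.24 (adjusted p = 0.0732, limma) and Myh6 at -0.18 (adjusted p = 0.239), neither of them called. Of 6 second heart field markers Isl1 was called higher in CKO-labelled against control arrays (1.38), in all 22 alternatives too. Against double heterozygous arrays Isl1 was also called higher (0.69, adjusted p = 0.0308, limma), a call lost in 12 of 22 alternatives. Kdr was called higher there as well (0.68, adjusted p = 0.0177), a call lost in 8 of 22. Both of these calls were lost on the deposited scale (0.57 and 0.56).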

How the data were processed

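The authors deposited 1 linear intensity per probe set for each of 11 arrays, with 45101 probe sets and PLIER as the only tool named, per the submitters' processing notes; the sources used here state neither background correction nor scaling. The 64 control probe sets were left out. The remaining 45037 were transformed to log2(value + 16), quantile normalised because array medians spanned 0.465, and fitted with limma 3.58.1 in R 4.3.3 with 1 coefficient per genotype, all arrays with moderation along an intensity trend (residual degrees of freedom 8, moderated 15.07). The pairwise tests were two-sided, adjusted by Benjamini-Hochberg over all probe sets and called under 0.05. The offset understates changes of dim genes. No 2 arrays shared more than 0.829% of values. Symbols came from the platform annotation (34945 probe sets with 1 symbol, 932 with several, 9160 with none). All member probe sets are reported; another gene is represented by its brightest probe set, passing over _x_at and _s_at ones. From each of 14 lists (118 genes, 113 measured) called genes are named, or otherwise the 2 with the smallest p. Members and lists were chosen with earlier results of these data known. Precision is limited by the number of arrays. The fit was tested on simulated data, and 22 alternatives were tried.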

Additional observations from a re-analysis of the deposited data

How the results depend on the processing

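In CKO-labelled against control arrays 3 member probe sets were called; median centring gave 0, the deposited scale 0, and the count was 1 without the trend, 1 unmoderated, 1 with only the compared groups, 4 with the filter on dim probe sets, 7 with array weights, 5 without CKO-labelled replicates 2 and 3, and 0 to 3 when each array was left out in turn. The calls over all probe sets were 632, and 362, 92, 281, 296, 263, 907, 2393 and 1362 in the same order of settings, with 168 to 897 in the leave-one-out fits. The calls higher and lower were 377 and 255, but 45 and 47 on the deposited scale and 142 and 220 with median centring. Between CKO-labelled and double heterozygous arrays 0 members were called, 3 with array weights, 3 without CKO-labelled replicates 2 and 3, and 0 to 1 in the leave-one-out fits. Between double heterozygous and control arrays the count of members was 0 under each of the 22 alternatives; over all probe sets it was 0 except for 1 with only the compared groups, 8 with array weights and 2 without CKO-labelled replicates 2 and 3. The 157 calls over all probe sets in CKO-labelled against double heterozygous arrays ranged from 1 (unmoderated) to 650 (without CKO-labelled replicates 2 and 3), and the 433 of the F-test from 81 (deposited scale) to 1599 (array weights). The F-test called 1 member, and 0 after median centring, on the deposited scale, without the trend, unmoderated or with the block, 3 with the filter on dim probe sets, 7 with array weights, 5 without CKO-labelled replicates 2 and 3, and 0 to 4 in the leave-one-out fits.

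With the replicate number as a block, 2 members were called in CKO-labelled against control arrays, with 265 over all probe sets: Id2 1422537_a_at (0.45) and Bambi (0.42), while Id1 (0.40, adjusted p = 0.147, limma) and Smad7 1423389_at (0.64, adjusted p = 0.0842) were not. Of the list genes, the block gained a call for Twist1 (-0.85, adjusted p = 0.0209). It lost those of Gata3 (0.86, adjusted p = 0.0832), Myh7 (0.26, adjusted p = 0.099) and Cdh5 (0.55, adjusted p = 0.101). Against double heterozygous arrays it lost those of Kdr (0.64) and Isl1 (0.60). Same-numbered arrays correlated at -0.0557 to 0.15 in their deviations from group means, and 2 of 3 correlated best with their own number in each comparison, and the labels give no more than the number, so the block is given here only.

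Small differences turned sign, none of them a call. On the deposited scale Id2 1435176_a_at was at -0.017 (CKO-labelled minus control), -0.0043 (CKO-labelled minus double heterozygous) and -0.013 (double heterozygous minus control), and CKO-labelled minus double heterozygous was -0.063 for Id1 and -0.040 for Id2 1422537_a_at. With median centring the first was -0.026, and CKO-labelled minus double heterozygous was -0.11 for Id1, -0.087 and -0.052 for these Id2 probe sets and -0.044 for Bambi. With array weights Msx2 1449559_at (CKO-labelled minus control) was 0.031 and Smad6 (CKO-labelled minus double heterozygous) 0.027. With the block Msx1 1417127_at was 0.047 and Msx2 1449559_at 0.020 for CKO-labelled minus control. Without CKO-labelled replicates 2 and 3, CKO-labelled minus control was 0.0017 for Id3 and 0.031 for Msx2 1449559_at, and CKO-labelled minus double heterozygous was 0.076 for Smad6 and 0.16 for Msx2 1438351_at. In the leave-one-out fits CKO-labelled minus double heterozygous ran from -0.064 to 0.068 for Smad6 and from -0.21 to 0.16 for Msx2 1438351_at. CKO-labelled minus control ran from -0.078 to 0.049 for Msx2 1449559_at and from -0.15 to 0.043 for Msx1 1417127_at. Double heterozygous minus control ran from -0.059 to 0.065 for Id2 1435176_a_at, from -0.049 to 0.27 for Id4 1423260_at and from -0.010 to 0.15 for Id4 1423259_at. The causes were not tested. Pairwise calls gained or lost by members through scaling, the filter, array weights or left-out arrays are given with the results. Without the trend, and with only the compared groups, Smad7 1423389_at was the 1 member called against control, so Id1 and Bambi lost their calls. Unmoderated, Bambi was the 1 member called, so Id1 (adjusted p = 0.0549) and Smad7 1423389_at (adjusted p = 0.0954) lost theirs. Array number and, for Msx1, Acvrl1, Gata3 and Chrd, signal near or below the overall median limit what could be detected.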
